A study of Mus musculus with 6 samples.

Results

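Integrins are the transmembrane receptors by which a cell holds its matrix, and each is a dimer of an α and a β subunit that together set which ligand is bound. Inside the cell, talins and kindlins bind the β tail and switch the receptor on, and the complex of integrin-linked kinase (ILK), PINCH and parvin, with paxillin, vinculin, zyxin and focal adhesion kinase, ties it to actin and to signaling at focal adhesions. Epithelial-to-mesenchymal transition (EMT) is known for changes in which integrins a carcinoma cell carries. The genes described here are the 18 α and 8 β subunits of the integrin family and 16 intracellular proteins of focal adhesions. They make 42 of the 24214 features in the deposited tables and were picked by symbol, with earlier results of these data known. All 42 were listed in the tables, and 40 passed the filter on low counts and were tested.

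The data came from 393P, a murine lung adenocarcinoma cell line of epithelial type that the labels assign to the KP model and to strain C57BL/6. Cells carried either empty vector (393P_vector, n = 3) or ectopic ZEB1 (393P_ZEB1, n = 3), a zinc finger repressor that drives EMT, and both groups were grown in RPMI-1640 with fetal calf serum and had passed drug selection as stable transfectants. No time after transfection is given with the samples, and nothing in the labels says that the 3 samples of a group were separate cultures. The p-values therefore weigh group differences against variation between these samples only, and may not carry over to new cultures. Other differences between the transfected lines cannot be told apart from the effect of ZEB1.

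Levels are given as CPM, the counts of a gene scaled to the library size of the sample, and as CPM per kilobase of exon length where genes are compared with each other. The fold changes, with a standard error (SE), and the adjusted p-values come from edgeR's quasi-likelihood fit over 13892 genes, and a gene was called higher or lower in 393P_ZEB1 cells when the adjusted p was below 0.05. Total counts per sample ranged from 54442450 to 79158012, so that 3 counts, the smallest number taken as detected, corresponded to between 0.0361 and 0.0561 CPM. In bulk RNA, fewer cells with a transcript and less transcript per cell cannot be told apart. The library labelled 393P_vector replicate 3 stood apart, with 6.89% and 7.75% of genes at least 2-fold away from replicates 1 and 2, against 0.9% between those 2. As a check of the labels, Zeb1 was at 21.5 ± 0.435 CPM (SD, n = 3) with vector and 51.7 ± 3.01 CPM (SD, n = 3) with ZEB1, a log2 fold change of 1.26. Of 12 epithelial markers 11 were lower and none was higher, most of all Krt7 at -8.51 and Cldn4 at -8.40 on the log2 scale. Of 9 mesenchymal markers 7 were higher and none was lower, with Cdh2 at 2.04. Zeb1 and Cdh2 both lie on chromosome 18, whose tested genes had a median log2 fold change of 0.64.

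Of the 40 tested members, 8 were higher (20.0%) and 13 lower (32.5%) in 393P_ZEB1 cells, while 19 passed no threshold. Over all genes tested, 18.3% were called higher and 19.3% lower. The share of members called higher was thus near the background and the share called lower was above it, and the median log2 fold change was -0.42 for members against -0.02 for all genes. In 8 members all 393P_ZEB1 samples lay above all 393P_vector samples and in 18 below, where the shares over all genes are 26.3% and 26.5%, or 52.8% in either direction. Integrin subunits were split evenly, with 7 of 24 tested subunits higher and 7 lower. The intracellular proteins leaned one way, since 1 of 16 was higher and 6 were lower. With the median shift of each chromosome removed, Zyx, Ptk2, Vcl and Pxn lost their calls and Lims2 was called lower.

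**Figure D1:**
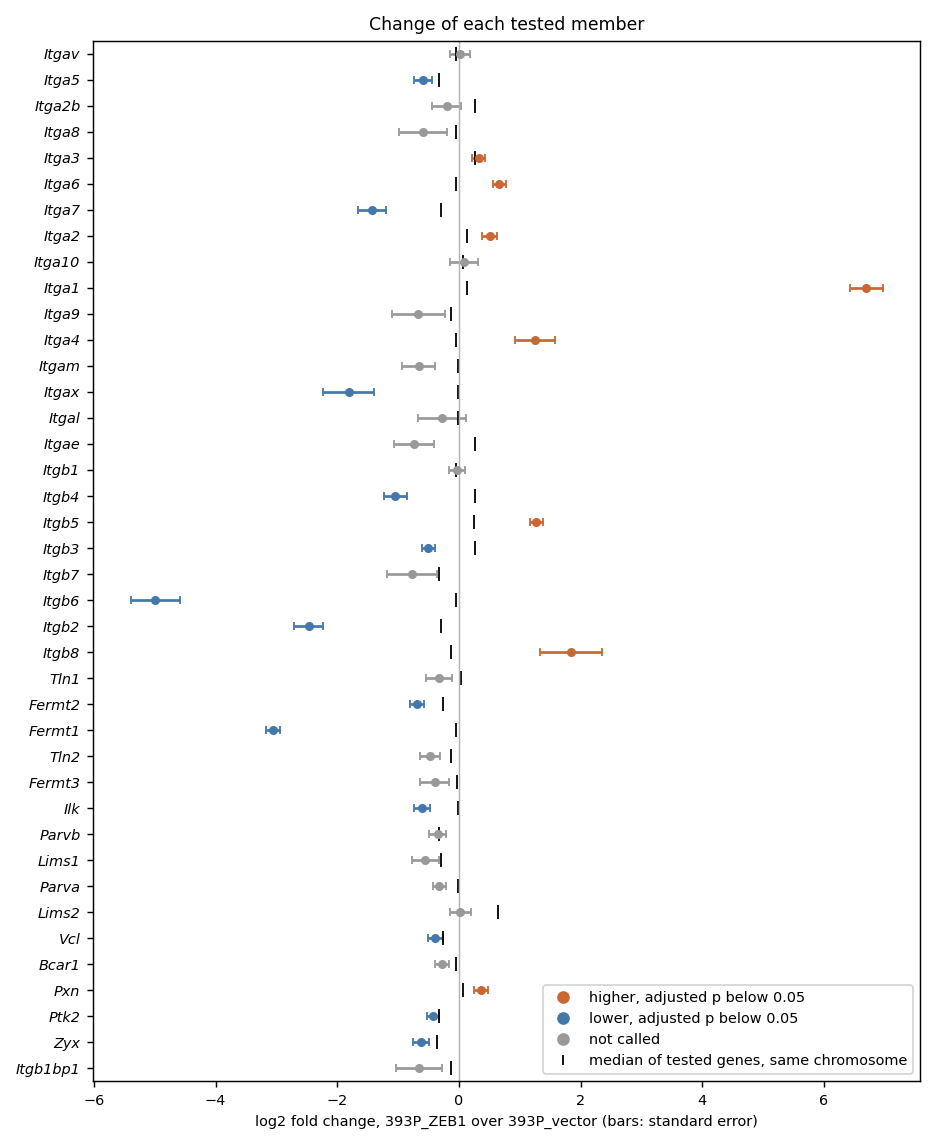
Log2 fold change of the 40 tested members (393P_ZEB1 over 393P_vector, x axis) with bars for the standard error. Orange points were called higher, blue points lower and grey points were not called, and the black tick beside each gene marks the median of the tested genes on its chromosome. Itga1 at 6.70 and Itgb6 at -4.99 lie farthest from 0.

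Among the α subunits of the collagen-binding class, Itga1 went from nearly undetected to a clear level, while Itga2 rose modestly from a high level. Itga1, on chromosome 13 from 114958081 to 115101964 (GRCm38, minus strand), encodes the α1 chain of the α1β1 receptor for collagens, with a preference for the basement membrane collagen type IV. Its level was 0.318, 0.170 and 0.409 CPM in 393P_vector replicates 1 to 3 and 33.1, 32 and 30.8 CPM in 393P_ZEB1 replicates 1 to 3. The vector samples held between 10 and 34 reads of the gene and the ZEB1 samples between 1772 and 1882, with no overlap. The fitted change was 104-fold, a log2 fold change of 6.70 (SE 0.27, edgeR adjusted p = 2.16e-06). Reads were spread along the transcript, since all 29 exons held more than 10 reads in every 393P_ZEB1 sample, against 0, 0 and 1 exon in the vector samples. Pelo, a small gene within Itga1 on the same strand, was at 26.4 ± 1.16 CPM with vector and 33.0 ± 3.42 CPM with ZEB1 (SD, n = 3), the former in samples where Itga1 was at most 0.409 CPM.

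Itga2, the α2 chain of the receptor for fibrillar collagens and laminin, is the neighbour of Itga1 on chromosome 13 from 114835912 to 114932041. Its level was 98.2, 91.2 and 118 CPM with vector and 142, 149 and 145 CPM with ZEB1, and the groups were separate. The log2 fold change was 0.50 (SE 0.12, edgeR adjusted p = 0.013), and the call was lost without 393P_vector replicate 1 or without 393P_ZEB1 replicate 2, with an adjusted p of up to 0.0549. Genes of chromosome 13 as a whole had a median log2 fold change of 0.13, and with this shift removed Itga2 was at 0.37 (edgeR adjusted p = 0.0502). Itga10 was near 1 CPM in both groups, with a log2 fold change of 0.08 (SE 0.23), and Itga11 held 5 to 14 reads per sample and was not tested. Per kilobase, Itga1 thereby went from 0.199 ± 0.0604% to 13.3 ± 0.567% (SD, n = 3) of the summed level of the 4 genes of this class, and the remainder was nearly all Itga2.

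The laminin-binding subunits were the most abundant α chains in both groups. Itga3, which pairs with β1, and Itga6, which pairs with β1 or β4, hold epithelial cells to laminin and made up 53.7 ± 1.15% and 29.7 ± 1.05% of the summed α subunit level per kilobase with vector, and 51.0 ± 2.29% and 35.8 ± 1.85% with ZEB1 (SD, n = 3). Itga6 was at 868, 862 and 759 CPM with vector and 1381, 1262 and 1297 CPM with ZEB1. Its 3 ZEB1 samples lay well above the vector samples, and the log2 fold change was 0.66 (SE 0.11, edgeR adjusted p = 0.00226). Itga3 was at 1783, 1798 and 1615 CPM with vector and 2041, 2242 and 2209 CPM with ZEB1, which gave a log2 fold change of 0.32 (SE 0.11, edgeR adjusted p = 0.0484). This call rested on the smallest margin of the 21: it was lost without any 1 sample other than 393P_vector replicate 3, and Itga3 was at 0.06 (edgeR adjusted p = 0.74) once the median shift of chromosome 11, 0.27, was removed. Itga7, the laminin receptor chain known from skeletal muscle, was low and fell, from 1.96, 2.41 and 1.56 CPM to 0.654, 0.738 and 0.803 CPM, without overlap. Its log2 fold change was -1.43 (SE 0.24, edgeR adjusted p = 0.00239).

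Of the subunits that bind the RGD motif of fibronectin and vitronectin, Itga5 was lower and Itgav was not called. Itga5 encodes the α chain of the classical fibronectin receptor. The study depleted this subunit in wound assays of another line and in motility assays of 393P_ZEB1 cells. Itga5 was at 142, 143 and 102 CPM with vector and 88.2, 80.3 and 89.4 CPM with ZEB1. The groups did not overlap, although 393P_vector replicate 3 lay closer to the ZEB1 samples than to its own group. The log2 fold change was -0.59 (SE 0.15, edgeR adjusted p = 0.0164). The gene lies on chromosome 15, whose tested genes had a median of -0.33, and with that removed Itga5 was at -0.25 (edgeR adjusted p = 0.234). The call was also lost without 393P_vector replicate 1 or any 1 ZEB1 sample, with an adjusted p of up to 0.0739, and without 393P_vector replicate 3 the log2 fold change was -0.73 (edgeR adjusted p = 2.36e-05). Itgav, the α chain shared by the vitronectin receptors, was at 358, 314 and 478 CPM with vector and 413, 373 and 373 CPM with ZEB1. These ranges overlapped, and its log2 fold change was 0.01 (SE 0.16, edgeR adjusted p = 0.967). Without 393P_vector replicate 3 it was 0.20 (edgeR adjusted p = 0.0801). Itga8 and Itga2b were low at means of 0.133 to 1.66 CPM, with overlapping groups and no call.

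The α subunits known from leukocytes, and the related Itga9, were below 1 CPM in every sample. Itga4, which pairs with β1 or β7 as the receptor for VCAM-1, had 11, 6 and 11 reads with vector and 16, 20 and 22 with ZEB1, or 0.102 to 0.194 CPM against 0.299 to 0.360 CPM. The groups did not overlap, and the log2 fold change was 1.25 (SE 0.33, edgeR adjusted p = 0.0212), a call that was lost without 393P_vector replicate 2 or without 393P_ZEB1 replicate 2 or 3 (adjusted p of up to 0.0718). Itgax, an αX chain of myeloid cells, held 19, 19 and 33 reads with vector and 4, 3 and 10 with ZEB1, with a log2 fold change of -1.81 (SE 0.42, edgeR adjusted p = 0.0117). The groups were separate, and without 393P_ZEB1 replicate 1 its edgeR adjusted p was 0.0548. Itgal, Itgam, Itgae and Itga9 were at most at 0.646 CPM in any sample and were not called, with log2 fold changes between -0.74 and -0.27, and Itgad held 3 to 12 reads per sample and was not tested.

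**Figure D2:**
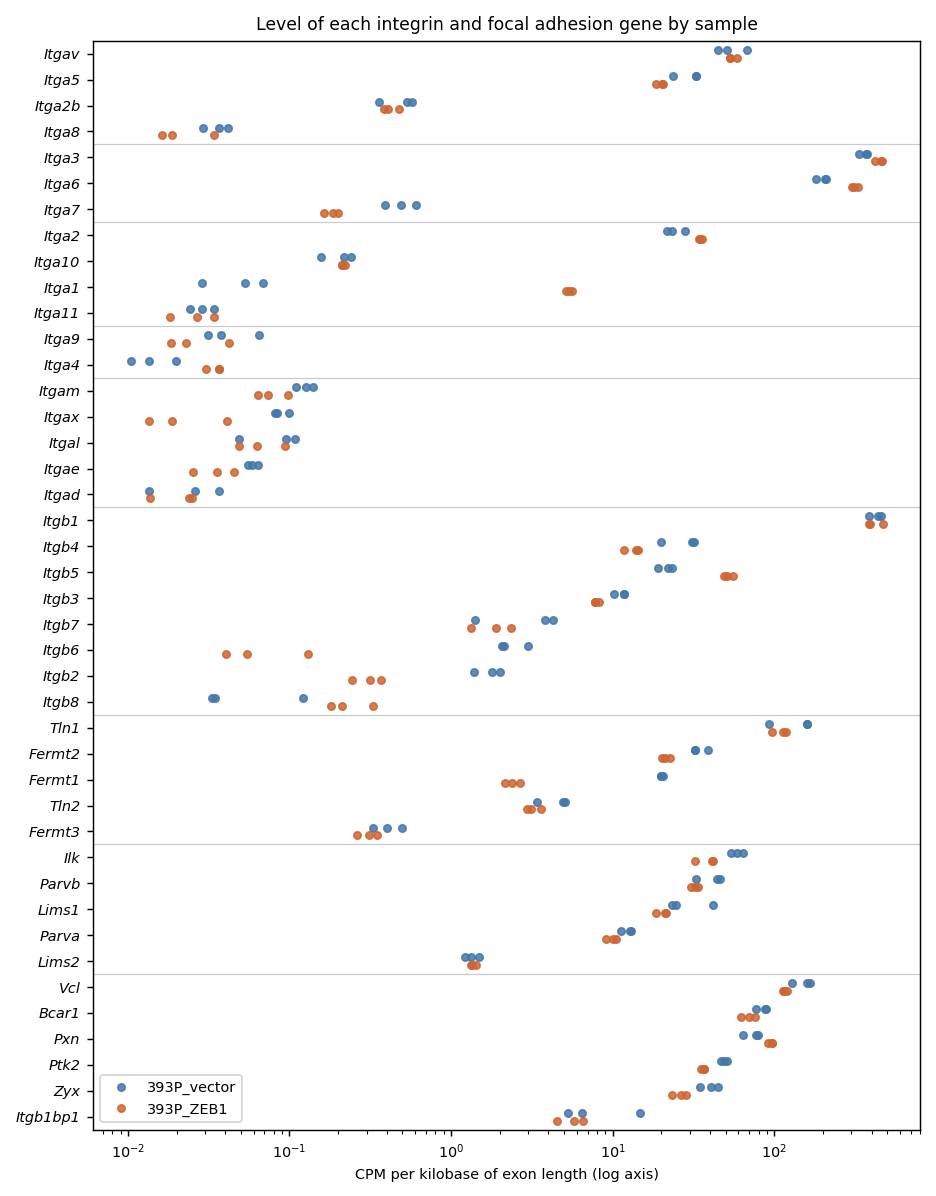
Level of each of the 42 members in each sample, in CPM per kilobase of exon length on a log axis, with 393P_vector in blue and 393P_ZEB1 in orange. Genes are grouped by class from α subunits at the top to adaptors at the bottom, and the widest gaps between the colors are those of Itga1, Itgb6 and Fermt1.

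Among the β subunits, Itgb1, which partners 12 of the α chains, was by far the most abundant and did not pass the test, Itgb5 and Itgb8 rose, and Itgb6, Itgb2, Itgb4 and Itgb3 fell. Itgb1 was at 1905, 1821 and 1603 CPM with vector and 1962, 1626 and 1615 CPM with ZEB1, with overlapping groups and a log2 fold change of -0.03 (SE 0.13, edgeR adjusted p = 0.856). Per kilobase it was 86.3 ± 0.982% of the summed β subunit level with vector and 84.5 ± 1.82% with ZEB1 (SD, n = 3).

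Itgb6, on chromosome 2 from 60598292 to 60722603, encodes the epithelial β6 chain, which with αv binds fibronectin and activates latent TGF-β. It was at 10.9, 10.5 and 15.2 CPM with vector and 0.206, 0.666 and 0.278 CPM with ZEB1. Every ZEB1 sample was far below every vector sample, by 31.8-fold in the fit, and the log2 fold change was -4.99 (SE 0.41, edgeR adjusted p = 6.06e-05). Of its 19 exons, 10 to 15 held more than 10 reads in the vector samples and at most 1 did in the ZEB1 samples.

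Itgb5, the β5 chain of the vitronectin receptor αvβ5, lies on chromosome 16 from 33829665 to 33949338. It was at 71.7, 76.1 and 62.8 CPM with vector and 167, 161 and 181 CPM with ZEB1, a 2.42-fold rise without overlap. The log2 fold change was 1.27 (SE 0.11, edgeR adjusted p = 8.93e-05), where the median of its chromosome was 0.25. In order of level per kilobase among the 42 members, Itgb5 stood at place 18 with vector and at place 9 with ZEB1. Itgb8, whose product also joins αv to activate latent TGF-β, was scarce, at 0.106, 0.102 and 0.373 CPM with vector and 0.654, 1.01 and 0.557 CPM with ZEB1. Its log2 fold change was 1.84 (SE 0.51, edgeR adjusted p = 0.0257), and the call was lost in 4 of the 6 fits that left out 1 sample, without replicate 1 or 2 of either group, with an adjusted p of up to 0.0948. Itgb3, the β3 chain of the other vitronectin receptor, fell from 67.7, 67.6 and 59.1 CPM to 45.0, 44.8 and 47.1 CPM, with separate groups. Its log2 fold change was -0.51 (SE 0.11, edgeR adjusted p = 0.00733).

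The 4 partners of αv other than β1 were therefore present in other proportions. Per kilobase, Itgb5 made up 61.0 ± 1.90% of their summed level with vector and 86.3 ± 0.572% with ZEB1, Itgb3 31.9 ± 0.696% and 13.2 ± 0.353%, and Itgb6 6.90 ± 1.97% and 0.127 ± 0.0875% (SD, n = 3). The groups did not overlap for any of the 3. Itgb8 lay between 0.0891% and 0.570% in all samples. The summed level of these 4 genes was between 32.6 and 37.1 CPM per kilobase with vector and between 57.4 and 63.8 with ZEB1, while Itgav itself was not called.

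Itgb4 encodes the long-tailed β4 chain of hemidesmosomes, where α6β4 links laminin to keratin filaments. It was at 196, 190.2 and 122 CPM with vector and 72.0, 85.5 and 88.0 CPM with ZEB1. The groups were separate, with 393P_vector replicate 3 between the others and the ZEB1 samples, and the log2 fold change was -1.05 (SE 0.19, edgeR adjusted p = 0.00389). Galk1, which overlaps the end of Itgb4 on the opposite strand, was higher with ZEB1 (log2 fold change 0.73), and whether the counting used strand is not given in the sources used here. With Itga6 higher and Itgb4 lower, Itga6 over Itgb4 per kilobase was 6.50, 6.65 and 9.10 with vector and 28.1, 21.6 and 21.6 with ZEB1. The other hemidesmosome genes looked at were Plec, Dst, Cd151 and Col17a1, of which Col17a1, at a mean below 1 CPM, was lower and the other 3 were not called. Itgb2, the common β chain of the leukocyte integrins, fell from 5.09, 5.68 and 3.92 CPM to 0.692, 0.900 and 1.05 CPM, a log2 fold change of -2.47 (SE 0.24, edgeR adjusted p = 0.000148). Its groups lay far apart. Itgb7 was at 11.3, 10.2 and 3.74 CPM with vector and 6.22, 5.04 and 3.54 CPM with ZEB1, with overlap and an adjusted p of 0.177 from edgeR, and without 393P_vector replicate 3 it was lower at a log2 fold change of -1.13 (edgeR adjusted p = 0.00101).

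**Figure D3:**
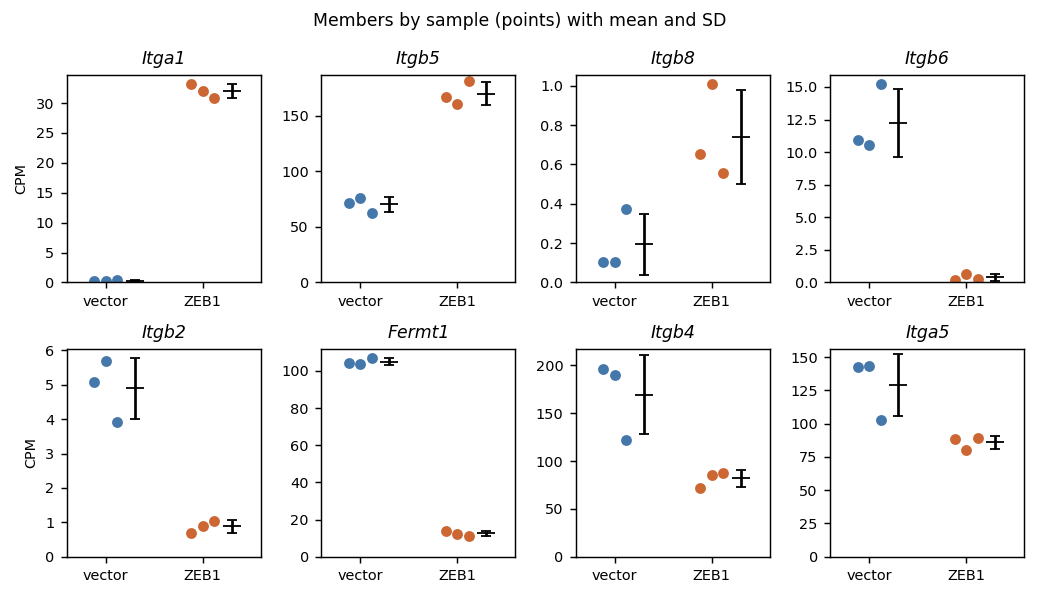
CPM of 8 members in each sample (points, replicates 1 to 3 from left to right) with the mean and SD of each group (n = 3). The axis of each panel starts at 0, and the groups are separate in all 8 panels, from Itga1 and Itgb6, which are near 0 in 1 group, to Itga5, where the third vector sample lies nearest the ZEB1 samples.

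Set side by side as receptors, 24 α and β pairs known to form were looked up with a level of at least 1 CPM for both subunits in every sample of a group. This was met by 11 pairs in each group, 9 of them shared. The pairs α7β1 and αvβ6 met it with vector only, and α1β1 and α10β1 with ZEB1 only. Itga10 lies at about 1 CPM in both groups, so α10β1 is at the edge of the limit, and these are mRNA levels and not dimers on the surface. The summed level of the α subunits, mostly Itga3 and Itga6, was between 637.6 and 686.2 CPM per kilobase with vector and between 873.3 and 882.7 with ZEB1, whereas that of the β subunits ranged from 439.1 to 529.9 with vector and from 462.8 to 543.2 with ZEB1.

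**Figure D4:**
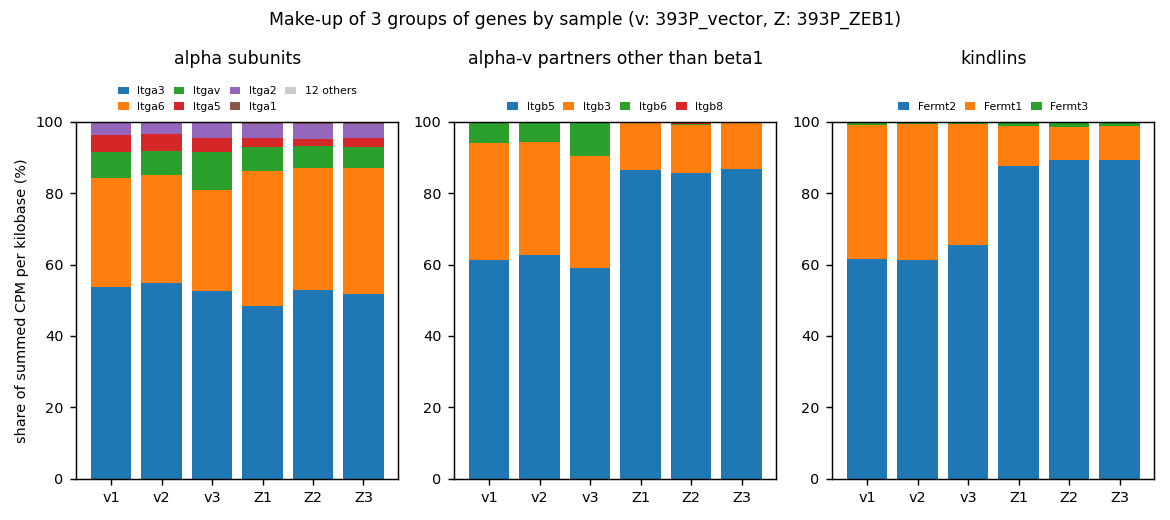
Share of the summed CPM per kilobase taken by each gene in each sample, in percent, for the α subunits, for the αv partners other than β1 and for the kindlins (v1 to v3 are 393P_vector, Z1 to Z3 are 393P_ZEB1). Itgb5 goes from 61.0% to 86.3% of the αv partners other than β1 and Fermt1 from 36.5% to 9.99% of the kindlins.

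Sequence near the start of these genes was read because ZEB1 is known to bind the E-box CAGGTG, which is CACCTG on the other strand. RefSeq promoter windows (GRCm38.p6, 250 bases before to 50 after a start) were at hand for 29 of the 42 members, and 8 of the 29 (27.6%) held the motif on either strand, compared with 21.1% of 9748 tested genes with a window and 20.2% of 32851 windows of all genes. No window was at hand for Itgb2, Itgb3 or Itgb4, which were called lower. The called members with a match were Itgb5, Itgb6, Itgb8 and Itga3. Their matches are printed with the motif in capitals, 5′ to 3′ on the strand of the gene. They are the 30 bases around the match, at chr16:33829544-33829573 (plus) for Itgb5, chr2:60673736-60673765 (minus) for Itgb6, chr12:119238321-119238350 (minus) for Itgb8 and chr11:95076892-95076921 (minus) for Itga3.
Itgb5: agctgtgacagcCACCTGggcaacccagga
Itgb6: ccgggcactgtaCACCTGacttccttataa
Itgb8: ggcctccctgccCACCTGtggaagaagcta
Itga3: aagggttcccgaCAGGTGtctgagagagag

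The motif starts 109 bases before the start in Itgb5, 60 before in Itgb6, 62 before in Itgb8 and 195 before in Itga3. In Itgb6 that start is the inner of its 2 listed starts, and the window at the outer start had no match. Of the 4, Itgb6 was lower and the other 3 were higher, and the windows of Itga1 and Fermt1, which changed most beside Itgb6, held no match. By comparison, 18.3% of all genes tested were called higher and 19.3% lower. Calls among all genes with the motif were not counted. A match is a description of these letters and not a site of binding. The remaining matches were in Itga9 (with 2), Itga11, Fermt3 and Lims1, none of which was called.

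The miR-200 family is repressed by ZEB1, and its members carry either of 2 seeds, so the 3′ UTRs of the 42 genes were searched for the complement of each. The mature sequences from RefSeq (GRCm38.p6) are printed with the seed, bases 2 to 8, in capitals. Those of mmu-miR-200b-3p, mmu-miR-200c-3p and mmu-miR-429-3p share AAUACUG, which pairs with CAGTATT, and those of mmu-miR-141-3p and mmu-miR-200a-3p share AACACUG, which pairs with CAGTGTT.
mmu-miR-200b-3p: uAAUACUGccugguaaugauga
mmu-miR-200c-3p: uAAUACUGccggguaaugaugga
mmu-miR-429-3p: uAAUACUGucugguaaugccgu
mmu-miR-141-3p: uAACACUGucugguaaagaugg
mmu-miR-200a-3p: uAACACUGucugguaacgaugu

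At least 1 of these sites lay in the longest coding transcript of 8 of the 42 members (19.0%), against 30.5% of 11971 tested genes with a 3′ UTR. Of the 8, Itga1, Itga2, Itga4 and Itgb8 were called higher, Fermt2 was lower, and Itgav, Itga10 and Tln2 were not called. Among all tested genes 22.3% of those with a site and 17.7% of those without were higher, and 17.1% and 21.1% were lower. Genes with a site also have longer 3′ UTRs, with a median of 2384 bases against 823.5. In the members with a site, the 3′ UTRs are 6994 bases long in Itga1, 6508 in Itga4, 5095 in Itgb8 and 3404 in Itga2. They are 4303 in Tln2, 3581 in Itgav, 1489 in Itga10 and 1055 in Fermt2, against 1198.5 in the median member. Whether the site or the length goes with the calls was not tested. Of the 12 sites, 8 lie inside the gene as the deposited tables delimit it, and the other 4, which are both sites of Itga2, that of Itgb8 and the second of Itga1, lie beyond its listed end. The sites inside the listed gene in the members called higher are shown with the match in capitals, on the strand of the gene. They lie at chr13:114958935-114958941 (minus) in Itga1 and at chr2:79328919-79328925, chr2:79330062-79330069 and chr2:79328250-79328256 (plus) in Itga4, where the coordinates are those of the capitals.
Itga1: acatggtgtatCAGTATTtaaatagaaaac
Itga4, site at 79328919: attatcttcaaCAGTATTgagagagcacaa
Itga4, site at 79330062: ctttctttggaCAGTATTAtatctgtagat
Itga4, site at 79328250: ggggcagccttCAGTGTTgtgaagaaagat

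Among the talins and kindlins, which bind the β tail directly, the epithelial kindlin fell most. Fermt1, on chromosome 2 from 132904179 to 132946036, encodes kindlin-1, the form of keratinocytes and other epithelia. It was at 104, 104 and 107 CPM with vector and 14.0, 12.5 and 11.4 CPM with ZEB1. All ZEB1 samples were below all vector samples, 8.33-fold in the fit, with a log2 fold change of -3.06 (SE 0.12, edgeR adjusted p = 1.87e-06). Fermt2, the widely expressed kindlin-2, was at 105, 104 and 126 CPM with vector and 68.4, 73.0 and 65.5 CPM with ZEB1, also without overlap, and its log2 fold change was -0.70 (SE 0.12, edgeR adjusted p = 0.0025). Fermt3, the kindlin of blood cells, was at 0.672 to 1.27 CPM and was not called. Per kilobase, Fermt1 went from 36.5 ± 2.08% to 9.99 ± 0.939% of the 3 kindlins and Fermt2 from 62.7 ± 2.25% to 88.7 ± 0.953% (SD, n = 3), while their sum went from 55.1 ± 4.19 to 24.1 ± 1.31 CPM per kilobase.

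Tln1, the talin of most cells and the most abundant of these 5, was at 1354, 1362 and 795 CPM with vector and 959, 823 and 1001 CPM with ZEB1. The third vector sample lay below all ZEB1 samples, and the log2 fold change of -0.34 did not pass (SE 0.21, edgeR adjusted p = 0.252). Without that sample it was -0.55 (edgeR adjusted p = 0.000778). Tln2 was at 61.6, 59.6 and 41.3 CPM with vector and 37.6, 35.8 and 43.3 CPM with ZEB1, with overlap through the same sample and an adjusted p of 0.0635 from edgeR. It was lower without that sample, at -0.64 (edgeR adjusted p = 0.00032).

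In the ILK-PINCH-parvin complex, Ilk was the only one of the 5 genes called in the fit with all samples. Per kilobase it was the most abundant of them in both groups, whereas Parvb and Lims1 had more CPM. Ilk was at 101, 110.2 and 119 CPM with vector and 60.3, 78.3 and 77.3 CPM with ZEB1. The groups were separate, with a log2 fold change of -0.61 (SE 0.13, edgeR adjusted p = 0.0089), and Rrp8 and Taf10 overlap its ends on the opposite strand. Lims1, which encodes PINCH-1, was at 122, 114 and 205 CPM with vector and 106, 104 and 91.4 CPM with ZEB1. Parva was at 56.7, 49.8 and 57.4 CPM with vector and 46.3, 44.3 and 40.6 CPM with ZEB1. The groups of both were separate, and neither passed, with adjusted p-values of 0.0866 and 0.0568 from edgeR. Parvb was at 164, 171 and 120 CPM with vector and 124, 113 and 119 CPM with ZEB1. Its groups overlapped (log2 fold change -0.35, adjusted p = 0.0938 from edgeR). All 3 were called lower without 393P_vector replicate 3, at log2 fold changes of -0.24, -0.28 and -0.49 for Lims1, Parva and Parvb. Lims2, the PINCH-2 gene on chromosome 18, was at 2.03 to 2.51 CPM in both groups with a log2 fold change of 0.02 (edgeR adjusted p = 0.933), where the median gene of that chromosome was at 0.64. With the chromosome shift removed, Lims2 was lower at -0.61 (edgeR adjusted p = 0.03).

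Of the adaptors, kinase and actin linkers, Pxn was the 1 gene called higher and Zyx, Ptk2 and Vcl were lower. Vcl, or vinculin, which reinforces the link to actin under load, was the most abundant, at 869.7, 835 and 671 CPM with vector and 626, 588 and 596 CPM with ZEB1. The groups were separate but the margin was small, with a log2 fold change of -0.39 (SE 0.13, edgeR adjusted p = 0.0418). Pxn, or paxillin, the scaffold by which the study stained focal adhesions, was at 291, 301 and 242 CPM with vector and 343, 366 and 363 CPM with ZEB1, a log2 fold change of 0.36 (SE 0.11, edgeR adjusted p = 0.0404). The calls of Vcl and Pxn were lost in 5 and in 4 of the 6 fits that left out 1 sample, with adjusted p-values of up to 0.144 and 0.122, and were kept without 393P_vector replicate 3 or, for Pxn, also without replicate 2.

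Ptk2, focal adhesion kinase, was at 241, 232 and 254 CPM with vector and 174, 183 and 183 CPM with ZEB1. Its spread was narrow and the groups were separate, with a log2 fold change of -0.43 (SE 0.09, edgeR adjusted p = 0.009). Zyx, or zyxin, found at mature adhesions and stress fibers, was at 109, 98.1 and 84.9 CPM with vector and 64.1, 68.9 and 56.3 CPM with ZEB1, a log2 fold change of -0.63 (SE 0.13, edgeR adjusted p = 0.00798). These genes lie on chromosomes 15 and 6, whose medians were -0.33 and -0.36. With the chromosome shift removed, Ptk2 was at -0.09 (adjusted p = 0.49), Zyx at -0.27 (adjusted p = 0.164) and Vcl, on chromosome 14, at -0.13 (adjusted p = 0.48), all from edgeR, and Pxn was at 0.29 (edgeR adjusted p = 0.0967). Bcar1, the p130Cas adaptor, had separate groups but an adjusted p of 0.0866 from edgeR, and was lower without 393P_vector replicate 3, at -0.35. Itgb1bp1, which encodes ICAP-1, a β1 tail binder that holds the receptor inactive, was at 9.91, 12 and 27.6 CPM with vector and 8.50, 12.2 and 10.8 CPM with ZEB1, with overlap and no call.

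The calls differed in how firmly they held. Of the 21 calls, 13 (3 higher and 10 lower) held with each sample left out in turn. The calls of Itga1, Itgb5, Itgb6, Fermt1, Itgb2, Itga7 and Itgb4 held under all 16 other settings tried. Removing the median shift of each chromosome left 5 members higher and 10 lower, with 2235 higher and 1992 lower among all 13892 genes tested. The member calls ended by this removal were those of Itga2, Itga3, Itga5, Ptk2, Vcl, Zyx and Pxn. What sets the chromosome shifts was not tested.

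Around these members, 57 other genes of focal adhesions and 23 genes of integrin traffic were looked at. Of 56 tested focal adhesion genes, 8 were higher and 8 lower (14.3% each), below the share over all genes. Among called genes with a mean of at least 5 CPM over all samples, the 2 largest rises were Fyn, a Src family kinase, at a log2 fold change of 1.61 and Nedd9, a relative of Bcar1, at 0.89, and the 2 largest falls were Tns4 at -7.00 and Tns1 at -2.44, which encode tensins that bind β tails. Tns4 went from 147 ± 11.1 CPM to 1.15 ± 0.172 CPM (SD, n = 3), with an adjusted p of 3.71e-07 from edgeR. Of 22 tested traffic genes, 3 were higher (13.6%) and 5 lower (22.7%), where the shares over all genes were 18.3% and 19.3%. By the same choice, Dab2, an endocytic adaptor for integrins, was at 0.92 and Rabep1 at 0.35, while Rab25, a recycling GTPase that binds α5β1, was at -8.01 and Acap1 at -1.01 on the log2 scale.

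Because several members mark blood cells, markers of other cell types were read in the same samples. Of 14 leukocyte markers 5 were tested, Cd14 was higher and Csf1r and Lcp1 were lower. The summed level of the list was 20.6 to 21.4 CPM with vector and 57.8 to 60.7 CPM with ZEB1, nearly all of it Cd14, at 17.0 and 58.0 CPM. The pan-leukocyte gene Ptprc was at means of 0.258 and 0.198 CPM, and Tyrobp and Lyz2 did not exceed 3 reads in any sample. Of 6 platelet markers only Ppbp was tested, and it was lower, while Gp9 and Pf4 did not exceed 3 reads and the sums were 7.36 to 19.9 CPM with vector and 1.08 to 1.27 CPM with ZEB1. Of 7 endothelial markers 3 were tested and Kdr and Egfl7 were lower, with sums of 7.17 to 8.09 CPM against 2.80 to 3.87 CPM. Of 10 fibroblast markers 6 were tested, with Col3a1 and Pdgfrb higher and Pdgfra lower, and sums of 2.88 to 4.10 CPM against 3.24 to 4.49 CPM. Lum and Fap did not exceed 3 reads in any sample. Other markers of these lists were above these levels, with means of 11.6 and 1.01 CPM for Ppbp, 5.13 and 2.64 CPM for Egfl7, 2.05 and 0.440 CPM for Lcp1, 1.91 and 0.330 CPM for Kdr and 0.119 and 1.597 CPM for Col3a1 with vector and with ZEB1. The part of other cell types in the members' changes was not tested.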

How the data were processed

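The authors deposited, for each of 6 samples, the unnormalized count of reads on 24214 RefSeq features with GRCm38 coordinates, an RPKM and the number of exons with more than 10 reads. RNA had been purified with RNeasy and libraries made with the SOLiD total RNA kit. The aligner, the counter and its strand setting are not given in the sources used here. The deposited RPKM implied a total between 99.1% and 99.32% of the summed counts and was not used further. Total counts ranged from 57844355 to 79158012 with vector and from 54442450 to 61251074 with ZEB1, and the floor of 3 counts covers counting error only.

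The condition in the labels set the groups. Counts were fitted in R 4.3.3 with edgeR 4.0.16 (TMM, filterByExpr with a minimum count of 10, robust quasi-likelihood, condition only, Benjamini-Hochberg over 13892 genes, threshold 0.05). The biological coefficient of variation was 0.184, and the fit was tested on simulated data. CPM used TMM library sizes. An exact permutation test of 3 samples against 3 cannot go below p = 0.1, so none is quoted. Alternatives were DESeq2 1.42.0 (size factors within edgeR, and its Wald test), other low count filters, the replicate number as a block, the 10 most counted genes left out, the chromosome medians removed by an offset, limma 3.58.1 voom with sample weights, each sample left out, a stricter threshold of 0.01 and edgeR's test of changes beyond 1.5-fold. Correlations across genes between deviations of equally numbered samples were 0.195, -0.126 and -0.0276, and those of unequally numbered ones were -0.12 to 0.157. With 3 samples per group they cannot decide whether the numbers pair the samples, and the main fit used no block.

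Members and lists were chosen with earlier results of these data known. All members are reported, with values of every sample for those called, for Itga5 and Itgb1 and for the most abundant of each list. From the other lists, the 2 largest rises and the 2 largest falls past the threshold with a mean of at least 5 CPM are named. Further called markers, and sample values of further members, were added after their values were seen. Motifs were searched in RefSeq promoter windows (GRCm38.p6), seed sites in GENCODE M21 3′ UTRs, with Python 3.11.15, NumPy 2.4.6, pandas 2.3.3 and matplotlib 3.10.9. Spi1, Adgre1 and Tns2 were matched by older symbols.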

Additional observations from a re-analysis of the deposited data

How the results depend on the processing

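The fit with all samples called 8 members higher and 13 lower. The number higher was 5 with the chromosome shift removed, 3 at an adjusted p below 0.01 and 2 in the test against a fold change of 1.5, and it ranged from 3 to 8 with each sample left out. The number lower was 23 with limma voom and sample weights and 6 in the test against a fold change of 1.5, and it ranged from 10 to 20 with each sample left out, the most without 393P_vector replicate 3. With the replicate number as a block, although the labels do not say that equal numbers belong together, 5 members were higher and 12 lower. Over all genes it called 2180 higher and 2256 lower in place of 2539 and 2679. Over all genes, voom called 3971 higher and 4100 lower, the fit without 393P_vector replicate 3 3700 and 3776, the adjusted p below 0.01 1584 and 1545, and the test against a fold change of 1.5 1081 and 1118. With the chromosome shift removed, 2235 of all genes were higher and 1992 lower. Leaving out each sample in turn gave 1861 to 3700 higher and 1784 to 3776 lower. Of 631 recomputed log2 fold changes of single members, 535 kept direction and call, 61 lost a call, 20 gained one and 15 changed sign, none of the latter in a called member. The sign changed in Itgav (-0.00015 with a mean of at least 1 CPM, and -0.111 to 0.201 with each sample left out), Itga10 (-0.0886 with voom, and -0.0889 to 0.214), Itgb1 (0.0114 with the chromosome shift removed, and -0.128 to 0.0251), Itgb1bp1 (0.012 with voom) and Lims2 (-0.61 with the chromosome shift removed, -0.0686 with voom, and -0.0496 to 0.107). The cause was not tested. Depth limits Itga4, Itgax and Itgb8, whose calls rest on 3 to 56 reads per sample.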
